A study of Mus musculus with 10 samples.

Results

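The monocyte chemokine genes *Ccl2*, *Ccl7*, *Ccl8* and *Ccl12* and the receptor gene *Ccr2* were examined in 10 mouse melanomas, 5 from WT hosts and 5 from Siah2 KO hosts. They were chosen by name, not by their values, and are 5 of the 770 genes measured, which comprise 750 endogenous genes and 20 reference genes. All 5 were detected in every tumor. The lowest value of any of them was 193.82 normalized counts, and the highest value of a negative control probe was 10.72.

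The chemokines are small secreted proteins of the monocyte chemoattractant family, which guide white blood cells along a gradient by binding receptors on their surface. In mice CCL2, CCL7 and CCL12 are ligands of CCR2, the receptor through which classical monocytes leave the bone marrow and enter inflamed tissue and tumors. CCL7 also binds CCR1 and CCR3, and mouse CCL8 acts through CCR8. Monocytes that enter a tumor can become macrophages, and CCR2 is also carried by some T cells and NK cells.

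The tumors were raised from YUMMER1.7, a mouse melanoma line with a mutant *Braf* allele and without *Cdkn2a*, which carries many somatic mutations and is immunogenic. Cells of this line were placed under the skin of male C57BL/6 mice that were either wild type at *Siah2* (WT) or lacked it (Siah2-/-, here Siah2 KO). Siah2 is a ubiquitin ligase. The host animal and not the injected line lacked the gene, and it was missing from the whole body, so stroma and every kind of immune cell of the host were affected. The mice were 5 to 7 weeks old by the legend of the growth experiment and 6 to 10 weeks by the study's summary of its animals. By the sample labels the tumors were taken at day 11, whereas the study's legend gives day 10. The labels of all 10 samples name this line and this genotype, although the design text of the series names another cell line and another gene. *Siah2* itself was not analysed here, so the genotype was not checked against its own transcript.

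Each value is the number of fluorescent barcodes counted for 1 gene in 100 ng of RNA of the whole tumor on the NanoString panel for cancer immunology, scaled to reference genes and called a normalized count. Whole tumors are mixtures, and a lower value can come from fewer cells of a type or from less RNA per cell, which cannot be told apart here. Each gene has its own probe, so levels of different genes were not set against each other. Where the levels of a list were summed, the sum is led by its highest genes. Before scaling, the sum over the 770 genes lay between 382853 and 581656 counts per tumor, and the scaling factors ran from 0.917 to 1.32 (WT) and from 1.03 to 1.60 (Siah2 KO). Of melanoma genes looked up after other values were seen, *Mcam* lay between 96.94 and 159.17 normalized counts over the Siah2 KO tumors and between 116.24 and 144.88 over the WT tumors. *S100b* was close to the floor of the values in Siah2 KO tumors (1.03 to 2.51) and low in WT tumors (6.29 to 26.67). *Cspg4* was lower in all Siah2 KO tumors (122.14 to 280.33) than in any WT tumor (303.55 to 425.17).

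Groups were compared as Siah2 KO minus WT on log2(value + 1), by the moderated test of limma over all 770 genes with Benjamini-Hochberg adjustment, and a gene is said to be past the threshold at an adjusted p under 0.05. The single gene was also put to an exact permutation test, two-sided, over all 252 ways to split the tumors 5 against 5, whose smallest possible p is 0.0079. *Ccl2* and *Ccl7* were higher in Siah2 KO tumors, by 2.89-fold and 2.69-fold, and *Ccl8*, *Ccl12* and *Ccr2* were not past the threshold. Thus 2 of 5 genes were past it, both in the direction of Siah2 KO, where 31.3% of all genes measured were higher, 9.74% were lower and 41.0% differed in either direction. In those 2 genes no Siah2 KO tumor overlapped a WT tumor, which held upward for 24.5% of all genes. Over all genes measured the log2 fold change had a median of 0.24, which was -0.01 when every tumor was scaled to the same median of the endogenous genes. Set against that median of 0.24, the log2 fold changes were 1.29 for *Ccl2*, 1.19 for *Ccl7*, -0.27 for *Ccl8*, -0.53 for *Ccl12* and -0.37 for *Ccr2*.

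**Figure D1:**
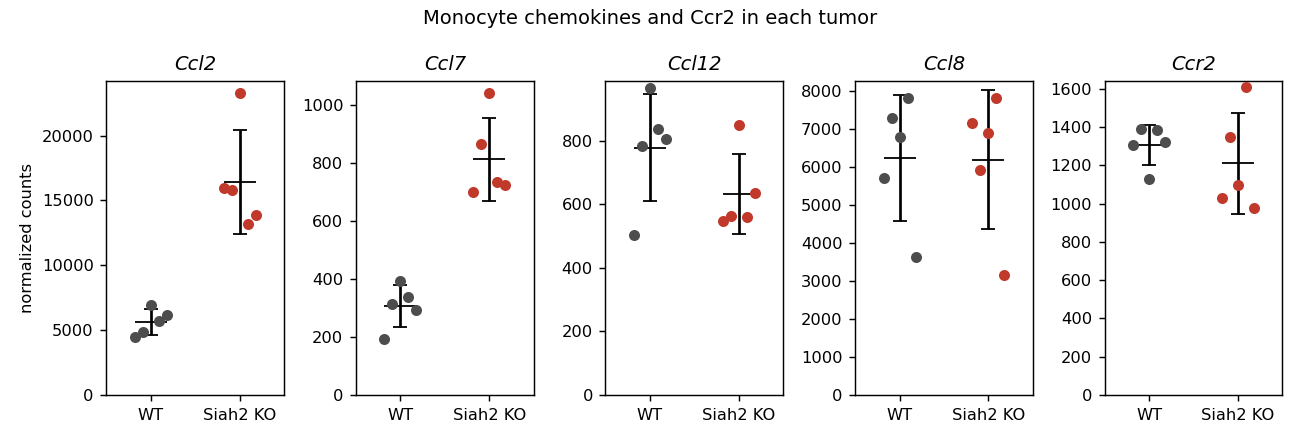
Normalized counts of the 5 genes in each tumor, with 1 point per tumor, a horizontal line at the mean and bars of 1 SD (n = 5 per group). Each panel has its own vertical axis from 0. The Siah2 KO tumors lie above all WT tumors for *Ccl2* (13215.39 and up against 6917.70 and down) and for *Ccl7* (699.80 and up against 393.97 and down), and the groups overlap for the other 3 genes.

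*Ccl2* encodes the best known ligand of CCR2. Its normalized counts in WT tumors were 4490.38 in WT2, 4874.97 in WT3, 6917.70 in WT4, 5733.42 in WT5 and 6150.13 in WT6. In Siah2 KO tumors they were 15949.27 in KO1, 15764.45 in KO2, 23264.35 in KO3, 13215.39 in KO5 and 13842.55 in KO6. Each of the 5 Siah2 KO values exceeded the highest WT value, and KO3 stood above the other 4. The means were 16407 ± 4013 in Siah2 KO against 5633 ± 976 in WT tumors (SD over 5 tumors each). The log2 fold change was 1.53 ± 0.17 (SE; 95% CI 1.14 to 1.92), with a limma adjusted p of 0.000229 and an exact permutation p of 0.0079. Without KO3 it was 1.40 (limma adjusted p = 0.000414).

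*Ccl7* encodes a second ligand of CCR2. It was measured in WT tumors at 193.82 in WT2, 313.12 in WT3, 393.97 in WT4, 337.59 in WT5 and 293.91 in WT6. The Siah2 KO tumors had 699.80 in KO1, 865.11 in KO2, 1040.53 in KO3, 735.44 in KO5 and 723.83 in KO6. Again every Siah2 KO tumor exceeded every WT tumor. As for *Ccl2*, WT2 was the lowest and WT4 the highest WT tumor, and KO3 was the highest Siah2 KO tumor. The means were 813 ± 143 against 306 ± 73.3 (SD over 5 tumors each), a log2 fold change of 1.43 ± 0.19 (SE; 95% CI 1.001 to 1.85) with a limma adjusted p of 0.000509 and an exact permutation p of 0.0079.

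*Ccl12* encodes the third CCR2 ligand on the panel. Its values in WT tumors were 503.18 in WT2, 781.78 in WT3, 964.68 in WT4, 836.52 in WT5 and 805.79 in WT6. In Siah2 KO tumors they were 547.82 in KO1, 564.24 in KO2, 848.58 in KO3, 561.08 in KO5 and 636.25 in KO6. The groups overlapped, since WT2 was the lowest of all 10 tumors and KO3 exceeded 4 of the 5 WT tumors. Of the WT tumors WT4 was again the highest. The means were 632 ± 126 in Siah2 KO and 778 ± 169 in WT tumors (SD over 5 tumors each), and the log2 fold change of -0.29 ± 0.19 (SE; 95% CI -0.71 to 0.13) was not past the threshold (limma adjusted p = 0.241, exact permutation p = 0.175). This call depended on the scaling and on 1 tumor. *Ccl12* was past the threshold and lower in Siah2 KO tumors with median scaling (-0.56, limma adjusted p = 0.0256), with quantile normalization (-0.65, limma adjusted p = 0.0104) and without WT2 (-0.44, limma adjusted p = 0.0447).

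*Ccl8* encodes a chemokine of the same family that acts in mice through CCR8. The WT tumors had 5711.54 in WT2, 7295.23 in WT3, 6790.16 in WT4, 7805.70 in WT5 and 3618.70 in WT6. The Siah2 KO tumors had 7165.24 in KO1, 5920.65 in KO2, 6897.34 in KO3, 7804.36 in KO5 and 3152.23 in KO6. Both groups covered almost the same range, and each held 1 tumor well below its others, WT6 and KO6. The means were 6188 ± 1827 and 6244 ± 1660 (SD over 5 tumors each). The log2 fold change was -0.03 ± 0.28 (SE; 95% CI -0.66 to 0.60; limma adjusted p = 0.941, exact permutation p = 0.881), an interval that holds changes from 0.633-fold to 1.52-fold, and its sign turned when the 10 steadiest reference genes were used for scaling (0.0098) and when any of 4 tumors (WT3, WT4, WT5 or KO6) was left out.

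*Ccr2* encodes the receptor. Its values were 1308.67 in WT2, 1388.79 in WT3, 1129.84 in WT4, 1386.93 in WT5 and 1323.45 in WT6, and 1028.18 in KO1, 1346.82 in KO2, 1098.61 in KO3, 1608.71 in KO5 and 975.22 in KO6. The WT tumors lay close together, whereas the Siah2 KO tumors spread on both sides of them, with KO5 above and KO1, KO3 and KO6 below all WT tumors. The means were 1212 ± 264 in Siah2 KO and 1308 ± 106 in WT tumors (SD over 5 tumors each), a log2 fold change of -0.13 ± 0.14 (SE; 95% CI -0.45 to 0.19; limma adjusted p = 0.496, exact permutation p = 0.389). *Ccr2* was past the threshold and lower in Siah2 KO tumors with median scaling (-0.40, limma adjusted p = 0.0234) and with quantile normalization (-0.55, limma adjusted p = 0.00854).

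The scaling factor of a tumor cancels in a ratio of 2 genes of that tumor, so the ratios of the 10 pairs of these genes were also compared between groups, each in a limma fit over the ratios of all other genes to the same denominator. The 6 ratios of *Ccl2* or *Ccl7* over *Ccl8*, *Ccl12* or *Ccr2* were higher in Siah2 KO tumors and past the threshold. They remained so under all 24 other settings tried, although those that only rescale a tumor could hardly move a ratio. Of all genes, 12.5% had a higher and 3.12% a lower ratio over *Ccl8*, 36.9% and 2.73% over *Ccl12*, and 35.5% and 5.46% over *Ccr2*. How many of all genes had ratios without overlap between the groups was not counted, so a lack of overlap below has no such share beside it. The other 4 pairs were not past the threshold. With means as log2 ratios of normalized counts, *Ccl2* over *Ccl12* was 4.69 ± 0.18 in Siah2 KO against 2.87 ± 0.19 in WT tumors (SD over 5 tumors each), without overlap. This difference of 1.82 (95% CI 1.38 to 2.25) had a limma adjusted p of 1.43e-05 and an exact permutation p of 0.0079. *Ccl7* over *Ccl12* differed by 1.72 (95% CI 1.30 to 2.13; limma adjusted p = 1.43e-05), from -1.35 ± 0.066 in WT to 0.37 ± 0.16 in Siah2 KO tumors, also without overlap. Over *Ccr2*, the receptor of both, the ratio of *Ccl2* differed by 1.66 (95% CI 1.11 to 2.21; limma adjusted p = 0.000496) and that of *Ccl7* by 1.56 (95% CI 1.03 to 2.08; limma adjusted p = 0.000549). Over *Ccl8* the differences were 1.56 (95% CI 0.86 to 2.26; limma adjusted p = 0.00103) for *Ccl2*, whose groups overlapped, and 1.46 (95% CI 0.76 to 2.15; limma adjusted p = 0.00201) for *Ccl7*, whose groups did not. The ratio of *Ccl2* to *Ccl7* differed by 0.10, with an interval of -0.35 to 0.56 (limma adjusted p = 0.652), where 1.30% of all genes had a higher and 81.1% a lower ratio to *Ccl7*.

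**Figure D2:**
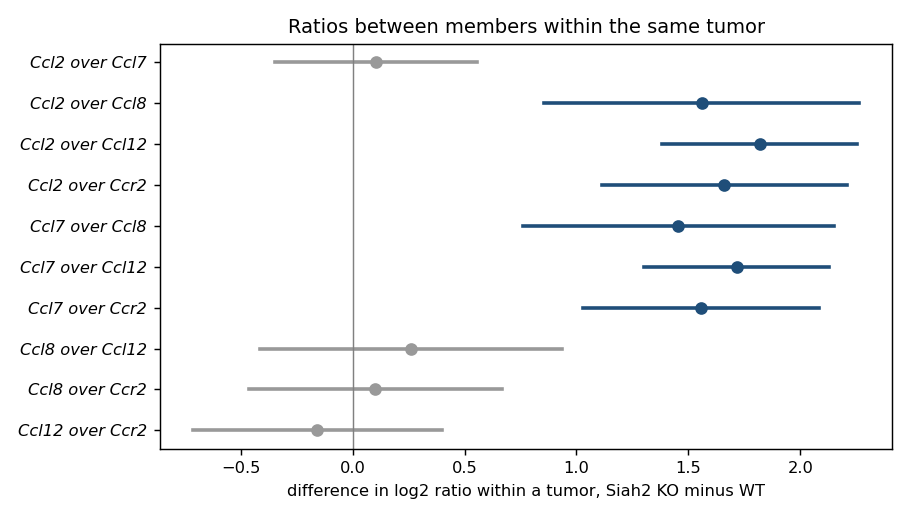
Difference between Siah2 KO and WT tumors in the log2 ratio of each pair of genes, with the ratio taken within a tumor. Points are differences, lines 95% confidence intervals over 5 tumors per group, and blue marks an adjusted p under 0.05. The 6 ratios with *Ccl2* or *Ccl7* over *Ccl8*, *Ccl12* or *Ccr2* lie between 1.46 and 1.82, and the intervals of the other 4 include 0.

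The 4 chemokine genes stand together on mouse chromosome 11, in the order *Ccl2*, *Ccl7*, *Ccl11*, *Ccl12*, *Ccl8* and *Ccl1* by the RefSeq annotation. *Ccl11* and *Ccl1* are not CCR2 ligands but lie within or beside the cluster. Between *Ccl11* and *Ccl12* the annotation has the long noncoding RNA gene *Gm38913*, for which there was no probe. *Ccl11*, which encodes the eosinophil attractant eotaxin, was 92.30, 103.64, 118.71, 77.56 and 97.26 normalized counts in WT2 to WT6, and 286.00, 332.19, 419.23, 512.32 and 170.56 in KO1, KO2, KO3, KO5 and KO6. Every Siah2 KO value was above every WT value, at means of 344 ± 130 against 97.9 ± 15.1 (SD over 5 tumors each), a log2 fold change of 1.72 ± 0.26 (SE; limma adjusted p = 0.00094). *Ccl1*, whose product binds CCR8, was 75.06, 48.10, 34.30, 63.05 and 47.13 in WT2 to WT6, and 18.65, 13.72, 49.24, 17.32 and 12.92 in the Siah2 KO tumors in the same order as above. It was lower in 4 Siah2 KO tumors than in any WT tumor, whereas KO3 lay among the WT tumors. Its log2 fold change was -1.36 ± 0.35 (SE; limma adjusted p = 0.011, exact permutation p = 0.032). With the replicate number as a block, possible for 8 tumors, *Ccl1* was not past the threshold (-1.48, limma adjusted p = 0.051). In the same 8 tumors without the block it was (limma adjusted p = 0.026).

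**Figure D3:**
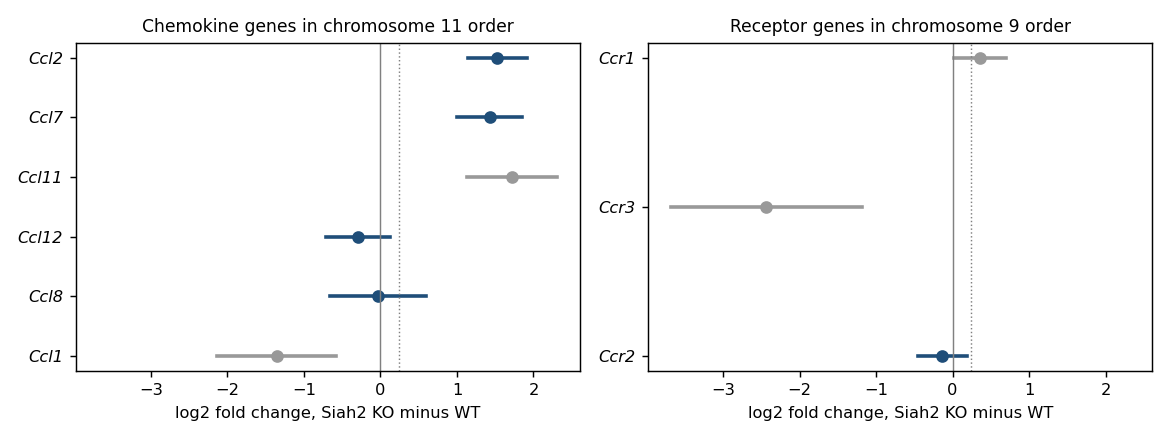
Log2 fold changes, Siah2 KO minus WT, of the chemokine genes in their order along chromosome 11 and of the receptor genes in their order along chromosome 9, from top to bottom. Points are estimates and lines 95% confidence intervals (5 tumors per group), blue marks the 5 genes chosen, grey their neighbours, and the dotted line the median of all genes at 0.24. *Ccl2*, *Ccl7* and *Ccl11* lie at 1.43 or above, *Ccl12* and *Ccl8* have intervals that include 0, and *Ccl1* lies at -1.36.

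Along the cluster, the 5 ratios of each gene to the next were compared, a set chosen after the values were seen. *Ccl7* over *Ccl11* differed by -0.30 (95% CI -0.94 to 0.35; limma adjusted p = 0.366) and *Ccl12* over *Ccl8* by -0.26 (95% CI -0.97 to 0.45; limma adjusted p = 0.711), neither past the threshold. *Ccl11* over *Ccl12* was higher in all Siah2 KO tumors than in any WT tumor, by 2.01 on the log2 scale (95% CI 1.38 to 2.65; limma adjusted p = 0.000186, exact permutation p = 0.0079). Of all genes, 36.9% had a higher ratio over *Ccl12*, and how many of them lacked overlap was not counted. *Ccl8* over *Ccl1* differed by 1.33 (95% CI 0.47 to 2.18; limma adjusted p = 0.0033, exact permutation p = 0.024). Of all genes, 91.4% had a higher and 0.650% a lower ratio over *Ccl1*, so this last value says nothing particular to *Ccl8*.

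The bases before the starts of *Ccl12* and *Ccl8*, the adjoining pair of cluster genes that were not past the threshold, and of *Ccl1*, which was lower, are shown because these genes lie next to *Ccl2*, *Ccl7* and *Ccl11* and were not higher with them. They were taken from the RefSeq promoter table of GRCm38.p6, which matched 4 of 7 genes looked up (*Ccl8*, *Ccl12*, *Ccr2* and *Ccl1*, and not *Ccl2*, *Ccl7* and *Ccl11*). Each is given 5′ to 3′ on the strand of the gene, with the 250 bases before the start. Capitals mark the TATA box TATAAA in *Ccl12* and *Ccl8* and the NF-kB motif in *Ccl1*. The places are chr11:82101595-82101844 on the plus strand for *Ccl12*, chr11:82114935-82115184 on the plus strand for *Ccl8* and chr11:82179813-82180062 on the minus strand for *Ccl1*.
Ccl12: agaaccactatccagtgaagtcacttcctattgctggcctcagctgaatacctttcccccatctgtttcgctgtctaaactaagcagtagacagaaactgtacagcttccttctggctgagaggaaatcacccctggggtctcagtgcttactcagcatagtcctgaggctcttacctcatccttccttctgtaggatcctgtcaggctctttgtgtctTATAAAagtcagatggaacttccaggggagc
Ccl8: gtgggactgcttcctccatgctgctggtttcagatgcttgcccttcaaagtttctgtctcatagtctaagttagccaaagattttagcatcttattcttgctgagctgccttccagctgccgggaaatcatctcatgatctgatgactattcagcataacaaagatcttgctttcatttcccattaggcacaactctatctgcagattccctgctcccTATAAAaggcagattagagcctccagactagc
Ccl1: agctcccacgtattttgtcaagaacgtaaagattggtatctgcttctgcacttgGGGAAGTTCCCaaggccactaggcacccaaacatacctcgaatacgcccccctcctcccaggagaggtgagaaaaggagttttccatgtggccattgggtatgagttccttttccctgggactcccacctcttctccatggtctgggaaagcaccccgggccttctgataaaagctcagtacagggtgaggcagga
The TATA box begins 31 bases before the start of *Ccl12* and 32 bases before that of *Ccl8*. In *Ccl1* the NF-kB motif was matched once on each strand, in 2 matches that overlap. Motifs were searched on both strands of the 300 bases from 250 before to 50 after each start, the NF-kB motif, the AP-1 motif TGANTCA and TATAAA, which do not overlap each other in these windows. They were held by 8.46%, 7.81% and 13.6% of the 32851 promoters of that length in the table. The NF-kB and AP-1 motifs had 0 matches in the windows of *Ccl12*, *Ccl8* and *Ccr2*, and TATAAA had 0 in those of *Ccr2* and *Ccl1*. A match of letters is a description, and no binding was measured.

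Of 3 other receptor genes for these ligands, or for those of their neighbours, 0 were higher and 1 was lower in tumors of Siah2 KO hosts. Over all genes 31.3% were higher and 9.74% lower. On chromosome 9 the order is *Ccr1*, *Ccr3* and *Ccr2*, with *Ccr1l1*, which had no probe, between *Ccr1* and *Ccr3*. *Ccr1*, a further receptor of CCL7, ranged from 346.93 to 440.54 in WT and from 397.22 to 669.27 in Siah2 KO tumors, with a log2 fold change of 0.36 (95% CI 0.01 to 0.70; limma adjusted p = 0.090). Without KO6 its log2 fold change was 0.44 and past the threshold (limma adjusted p = 0.037). *Ccr8*, the receptor of mouse CCL8 and CCL1, was low, at 9.54 to 23.74 in WT and 8.80 to 18.79 in Siah2 KO tumors (log2 fold change -0.20, 95% CI -0.75 to 0.36; limma adjusted p = 0.548). *Ccr3*, the eotaxin receptor, was 3.75 to 39.80 in WT and 1.03 to 5.72 in Siah2 KO tumors, and its log2 fold change of -2.43 (limma adjusted p = 0.0061) became -0.22 (limma adjusted p = 0.40) with values under 20 raised to 20.

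Levels in whole tumors were next set beside genes of leukocytes, only some of which carry CCR2. Of 7 genes shared by leukocytes, 6 were higher and 0 lower in tumors of Siah2 KO hosts (2 to 6 higher with other settings). Of all genes 31.3% were higher and 9.74% lower. The median log2 fold change of the list was 0.58, against 0.24 over all genes. The summed level of these 7 genes was 4498 to 5506 normalized counts in WT and 6646 to 10043 in Siah2 KO tumors. *Itgb2*, the common chain of the leukocyte integrins, was the highest of them (1.16, limma adjusted p = 0.0011), and *Cd37* at 0.01 was the 1 gene not past the threshold. The part of leukocyte content in the results for the chemokines and *Ccr2* was not tested.

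When the median log2 level of the 7 leukocyte genes was subtracted in each tumor, 4 of the 5 genes were past the threshold. *Ccl2* was higher by 1.01 (95% CI 0.52 to 1.49; limma adjusted p = 0.0055) and *Ccl7* by 0.90 (95% CI 0.41 to 1.39; limma adjusted p = 0.0092), on a scale where 10.4% of all genes were higher and 28.4% were lower. *Ccr2* was lower by this measure, with a difference of -0.66 (95% CI -0.99 to -0.32; limma adjusted p = 0.0065, exact permutation p = 0.0079), and so was *Ccl12*, at -0.81 (95% CI -1.30 to -0.33; limma adjusted p = 0.0145, exact permutation p = 0.0079). For these last 2 genes no Siah2 KO tumor overlapped a WT tumor, which held downward for 17.0% and upward for 7.40% of all genes on this scale. *Ccl8* had a difference of -0.55 (95% CI -1.09 to -0.02) that was not past the threshold (limma adjusted p = 0.091). *Ccl12* was no longer past it in the 8 tumors left when numbers found in 1 group alone are dropped (-0.65, limma adjusted p = 0.086). In 3 of 15 other settings *Ccl8* was past it, among them *Ptprc* alone as the leukocyte level (-0.81, limma adjusted p = 0.026). *Ccl8* was also past it without WT6 (-0.75, limma adjusted p = 0.015).

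Classical monocytes express CCR2, and their genes were also used as the reference. Of 7 such genes 4 were higher in Siah2 KO tumors and 1 was lower, with a median log2 fold change of 0.75. With scaling to the positive control probes 0 were higher. Over all genes 31.3% were higher and 9.74% lower, with a median of 0.24. The NADPH oxidase subunit *Cybb* was the highest (0.91, limma adjusted p = 0.0046), while *F13a1*, the coagulation factor XIII subunit of monocytes and resident macrophages, was lower (-1.24, limma adjusted p = 0.0023). *Chil3*, at 0.79, and *Lyz2*, at 0.14, were not past the threshold, and no gene of the list was at the floor. The summed level of the list, 13652 to 19106 in WT and 14527 to 29050 in Siah2 KO tumors, overlapped. It came mostly from *Lyz2*, at 11299 to 16365 in WT and 11375 to 23622 in Siah2 KO tumors. Of the 7 genes 3 were higher and 1 was lower without overlap, which held for 24.5% and 7.01% of all genes. Relative to the median of these 7 genes, *Ccl2* was higher by 1.003 (95% CI 0.55 to 1.46; limma adjusted p = 0.0037) and *Ccl7* by 0.90 (95% CI 0.46 to 1.34; limma adjusted p = 0.0052), where 7.27% of all genes were higher. Both were without overlap, which held upward for 5.32% and downward for 11.2% of all genes. *Ccr2* had a difference of -0.66 (95% CI -1.06 to -0.25; limma adjusted p = 0.019) and *Ccl12* one of -0.82 (95% CI -1.30 to -0.33; limma adjusted p = 0.0149), where 21.9% of all genes were lower. In the 8 tumors named above *Ccl12* was not past the threshold (-0.76, limma adjusted p = 0.053). The *Ccr2* difference was not past the threshold without WT2 (-0.60, limma adjusted p = 0.0552), without WT3 (-0.62, limma adjusted p = 0.0538) or without KO1 (-0.61, limma adjusted p = 0.055). *Ccl8* at -0.56 (95% CI -1.02 to -0.09; limma adjusted p = 0.066) was not past it, but was in 5 of 14 other settings and without WT6 (-0.71, limma adjusted p = 0.0225).

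**Figure D4:**
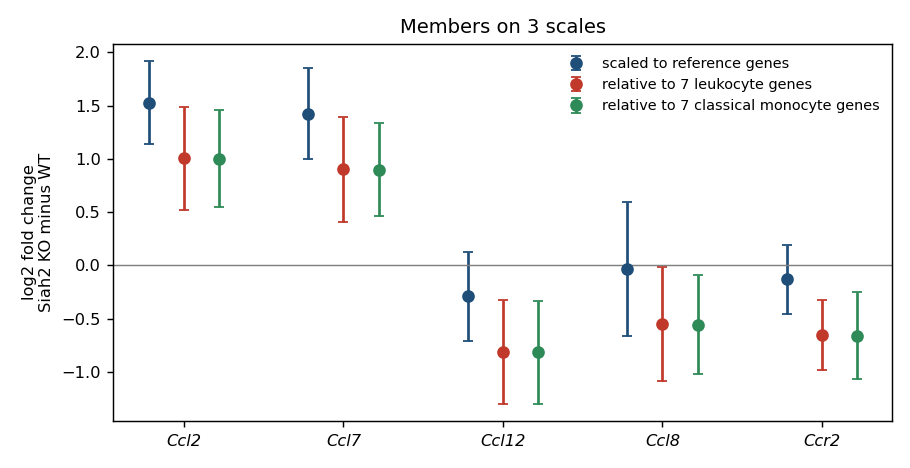
Log2 fold changes of the 5 genes, Siah2 KO minus WT, on 3 scales: scaled to reference genes, relative to 7 leukocyte genes and relative to 7 classical monocyte genes. Points are estimates and bars 95% confidence intervals over 5 tumors per group. *Ccl2* and *Ccl7* lie above 0 on every scale shown, and the intervals of *Ccl12*, *Ccl8* and *Ccr2* include 0 on the reference gene scale and exclude it on the other 2, although *Ccl8* was not past the threshold after adjustment.

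Genes of other cells that make or answer these chemokines were counted by list. Each count stands beside a share of 31.3% higher and 9.74% lower over all genes. Of 11 macrophage genes 2 were higher (*Msr1* at 0.92 and *Cd68* at 0.87) and 2 lower (*Cd163* at -1.86 and *Mrc1*, the mannose receptor, at -0.89), with a median of -0.04. Their summed level was 18301 to 21641 in WT and 20243 to 28014 in Siah2 KO tumors. Of 4 genes of nonclassical monocytes 3 were higher, led by the Fc receptor gene *Fcgr4* at 1.45, and the fractalkine receptor gene *Cx3cr1* was lower at -2.34 (limma adjusted p = 0.00079). *Cx3cr1* was 423.9 ± 78.7 normalized counts in WT and 92.6 ± 50.4 in Siah2 KO tumors (SD over 5 tumors each), without overlap. It was also the 1 gene past the threshold among 7 genes of monocyte growth and survival factors and their receptors, where *Csf1r*, *Csf1* and *Il34* had log2 fold changes of -0.02, 0.18 and -0.14. With other settings 1 to 5 genes of this list were lower.

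Of 8 neutrophil genes 2 were higher, *Trem1* at 1.24 and *Csf3r* at 0.95, and 4 of the 8 had a mean under 20 normalized counts. For every count in this paragraph, the share over all genes was 31.3% higher and 9.74% lower. The granule gene *Ltf* was at or close to the floor in both groups. Of 6 genes of eosinophils and mast cells 0 were higher and 2 were lower, *Il5ra* at -1.33 and *Ms4a2* at -0.87, at levels of at most 11.57 and 20.53 normalized counts in any tumor, and with other settings between 0 and 4 genes of this list were lower. Of 5 dendritic cell genes 1 was higher, and of 4 T cell genes 3 were higher (median 0.75), or 0 to 4 with other settings. Of 8 endothelial genes 2 were higher and 2 lower, and with other settings 0 to 2 were higher and 1 to 6 lower. All 4 fibroblast genes were lower, with a median of -0.87, led by *Fap* at -1.97 (limma adjusted p = 0.00018). Their summed level was 10332 to 12326 in Siah2 KO against 16494 to 21344 in WT tumors, without overlap. Most of this sum was *Col3a1*, at 8067 to 9614 in Siah2 KO and 13498 to 17631 in WT tumors. Fibroblasts, endothelial cells and tumor cells are known to make CCL2 and CCL7 as well as myeloid cells, and the part of any of these cells in the results was not tested.

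**Figure D5:**
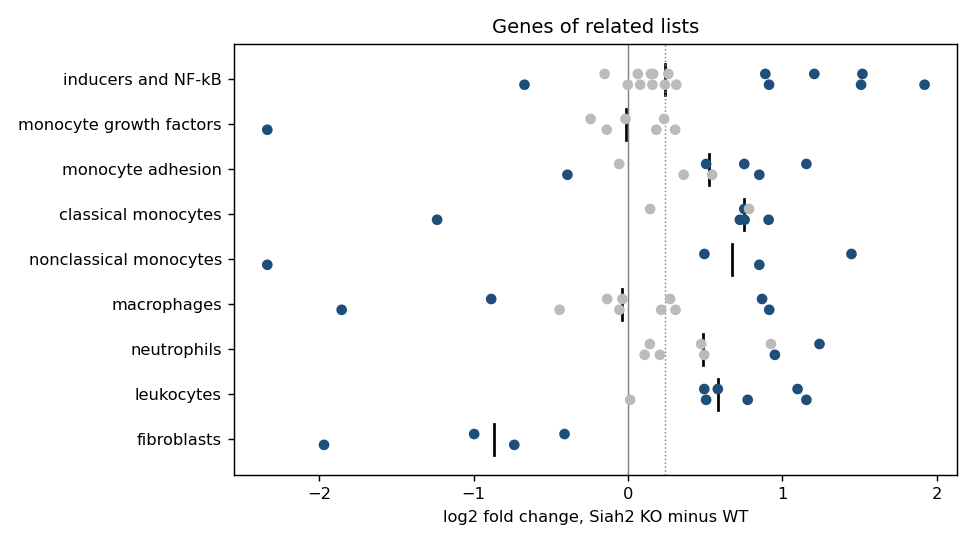
Log2 fold changes, Siah2 KO minus WT (5 tumors each), of the genes of 9 lists of related signals and cell types, with 1 point per gene. Blue marks an adjusted p under 0.05, a black tick the median of a list, and the dotted line the median of all genes at 0.24. The list medians run from -0.87 for fibroblasts to 0.75 for classical monocytes.

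*Ccl2* and *Ccl7* are known targets of TNF, IL-1 and interferon signals that act in part through NF-kB. Of 17 genes of these inducers, their receptors and NF-kB, 6 were higher in Siah2 KO tumors, 1 was lower and 10 were not past the threshold. Of all genes 31.3% were higher and 9.74% lower, and the median of the list was 0.24, that of all genes. *Ifng* was 49.1 ± 21.7 normalized counts in Siah2 KO and 11.6 ± 3.69 in WT tumors (SD over 5 tumors each), a log2 fold change of 1.92 (limma adjusted p = 0.0015). *Tnf* was 133 ± 32.7 against 45.0 ± 7.01 (1.52, limma adjusted p = 0.0003). Neither gene overlapped between the groups. The interleukin 1 genes *Il1b* (1.51, limma adjusted p = 0.00057) and *Il1a* (1.21, limma adjusted p = 0.021) were also higher, the former without overlap. *Il1a* was low, at 10.52 to 39.14 normalized counts in Siah2 KO and 5.23 to 11.57 in WT tumors. The interleukin 1 receptor gene *Il1r1* was lower in all Siah2 KO tumors (-0.67, limma adjusted p = 0.00085), and the NF-kB gene *Nfkb2* had a log2 fold change of -0.15 (limma adjusted p = 0.236). The other NF-kB subunit genes, *Nfkb1* (0.15), *Rel* (0.16), *Rela* (0.08) and *Relb* (0.16), were not past the threshold either. With other settings between 3 and 7 genes of this list were higher and 0 to 5 lower. The part of these signals in the results for *Ccl2* and *Ccl7* was not tested.

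Of 8 genes of the adhesion steps by which monocytes leave the blood, 4 were higher, among them *Itgb2* at 1.16 and *Itgal* at 0.85, which together encode the integrin LFA-1. *Vcam1*, an endothelial ligand of monocyte integrins, was lower at -0.39 (limma adjusted p = 0.043), and *Itgb1* had -0.06. The count of lower genes in this list stayed at 1 in 8 of 24 other settings and was 0 or 2 in the rest. Of 17 other CC chemokine genes, *Ccl11* and *Ccl1* included, 4 were higher and 3 lower, with a median of -0.12, against 31.3% higher and 9.74% lower over all genes. The largest rise was that of *Ccl4* (2.20, limma adjusted p = 2.71e-05), followed by *Ccl3* (2.02, limma adjusted p = 0.000198). The lowest were *Ccl17*, at -3.46, and *Ccl22*, at -1.37, both ligands of CCR4. *Ccl17* was 1.03 to 22.72 normalized counts in Siah2 KO and 43.28 to 171.01 in WT tumors. The size of its change thus depends on the floor and pseudocount.

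The likeness of other genes to each of the 5 was measured as the root mean square difference of log2 values over the 10 tumors after centring, among the 601 genes whose mean reached 20 normalized counts, and is given without a test. The gene closest to *Ccl2* was *Ccl7*, at 0.187, and the same held in reverse. Next to *Ccl2* came *Il1rn*, which encodes the interleukin 1 receptor antagonist, at 0.205, and *Klrc1*, an NK cell receptor gene, at 0.268. Next to *Ccl7* came *Il1rn* at 0.244 and *Thbs1*, which encodes thrombospondin, at 0.271. *Ccl8* had no gene closer than *Il4ra* at 0.260, followed by *Fcgr2b* at 0.270 and *Ctla4* at 0.279. *Ccl12* was closest to *Jam3* (0.200), *Traf3* (0.231) and *Map3k7* (0.235). *Ccr2* was closest to *Txnip* (0.0844), *Ifngr1* (0.117) and *Csf1r* (0.132), the receptor gene of macrophage growth factor. No chemokine gene was among the 3 closest to *Ccr2*, *Ccl8* or *Ccl12*. Since the measure takes in the difference between the groups, genes with like changes come close, and a gene of small spread comes close to *Ccr2*.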

How the data were processed

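Gene expression was measured on the NanoString nCounter PanCancer Immune Profiling panel in 5 WT and 5 Siah2 KO tumors, grouped by the sample labels. The authors deposited the signal of each of 784 probes as normalized counts. Per the methods, nSolver v2.0 was used, samples whose positive controls stood out were dropped, and counts were scaled to 20 reference genes. The values look as if a background constant had been subtracted and a floor of 1 set before scaling, which the methods do not state. Of low values 100% lay within 0.1 of a whole step of the factor. The lowest values equalled the factor of a tumor where it exceeded 1, up to 1.60 in KO2, and were 1.00 in the other tumors. The floor thus differs between tumors. Depth is given as the sum before the factor. Since the background constant is not stated, raw counts were not recovered and no count model was used. The 6 positive and 8 negative control probes were not tested.

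The log2(value + 1) of 770 genes was compared with lmFit and eBayes (limma 3.58.1, R 4.3.3), with Benjamini-Hochberg adjustment over 770 genes, and a two-sided exact permutation test was run for single genes. Within-tumor ratios, and values relative to a list's median, were fitted the same way. The p-values measure the spread between tumors, and fold changes of low genes are understated by the pseudocount. Genes named were the 5 genes, their cluster neighbours and other receptors, of each further list at most the 2 highest and 2 lowest, and the 3 nearest patterns. *Mcam*, *S100b*, *Cspg4*, *Cd37*, *Chil3*, *Lyz2*, *Csf1*, *Csf1r*, *Il34*, *Ltf*, *Ptprc*, *Il1a*, *Il1b*, *Nfkb1*, *Rel*, *Rela*, *Relb* and *Itgb1* are named besides, some outside this rule and after their values were seen. The genes and lists were chosen with earlier results of these data known. Some further genes are not reported here and were left out of the lists. Scripts were tested on simulated data. Alternatives were other scalings, filters, floors, pseudocounts, tests, a replicate block and leaving out each tumor. Figures were drawn with matplotlib 3.10.9 (Python 3.11.15).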

Additional observations from a re-analysis of the deposited data

Results flagged for a closer look

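In 20 groups of 5 tumors examined, 2 held a tumor far from the others by Dixon's test, which marks about 1 group in 20 by chance. Both times it was KO3. Its *Ccl2* value of 23264.35 normalized counts was the highest of the Siah2 KO tumors, with a gap to the next that made up 0.728 of the range of the group. Its *Ccl1* value of 49.24 normalized counts was also the highest of the Siah2 KO tumors and lay within the WT range, with a gap of 0.842 of the range. Without KO3 the log2 fold change was 1.40 for *Ccl2* (limma adjusted p = 0.000414) and -1.68 for *Ccl1* (limma adjusted p = 0.0010).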

How the results depend on the processing

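*Ccl2* and *Ccl7* kept their direction and stayed past the threshold under all 24 alternatives, with log2 fold changes of 1.26 to 1.61 and 1.07 to 1.58. The 6 ratios past the threshold did so too, although alternatives that only rescale a tumor could hardly move a ratio. For *Ccl12* the log2 fold change was past the threshold with median scaling (-0.56) and quantile normalization (-0.65), and -0.44 to -0.20 with each tumor left out. *Ccr2* was past it with median scaling (-0.40) and quantile normalization (-0.55). *Ccl8* turned sign with the 10 steadiest reference genes (0.0098) and when single tumors were left out (-0.21 to 0.20; 0.038 without WT3, 0.012 without WT4, 0.063 without WT5 and 0.196 without KO6). *Ccl8* over *Ccr2* turned to -0.088 without WT6 and -0.021 without KO1, in a range up to 0.256. Over all genes, 95 were past the threshold with positive control scaling (63.2% higher) against 316 (76.3% higher), 315 with median scaling (51.7% higher) and 334 with quantile normalization (45.8% higher). The cause was not tested.

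The replicate number as a block, possible for 8 tumors, gave *Ccl2* 1.61, *Ccl7* 1.58, *Ccl8* -0.06, *Ccl12* -0.16 and *Ccr2* -0.13, with 235 genes past the threshold against 232 without the block in the same tumors. Same-numbered tumors deviated together with r of 0.04 to 0.35, over 0.1 in 2 of 4 pairs. The r of 0.35, for WT6 and KO6, was the highest of any WT tumor with any Siah2 KO tumor. With 4 pairs this cannot settle whether the numbers pair the tumors. With the block *Ccl1* (-1.48, limma adjusted p = 0.051) was no longer and *Ccr1* (0.43, limma adjusted p = 0.048) was past the threshold. The methods' t-test gave 379 genes at an unadjusted p under 0.05 and 314 after adjustment. At 5 tumors a group, differences of *Ccl8* within its interval could not be resolved, and genes near the floor depend on the pseudocount and floor.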
